A study of Mus musculus with 8 samples.

Results

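The genes described here are 9 that encode tight junction proteins of the epidermis: the claudins *Cldn1*, *Cldn3*, *Cldn4*, *Cldn7*, *Cldn8* and *Cldn23*, occludin (*Ocln*), and the scaffold proteins ZO-1 (*Tjp1*) and ZO-3 (*Tjp3*). Taken by name, they are the rows of the gene table whose Ensembl identifier carries one of these symbols in the GENCODE mouse annotation, and all 9 were found among 55416 genes. RNA was sequenced from the dorsal epidermis of mice at postnatal day 4 (P4), in 4 control libraries (A1, B1, C1 and C6, genotype labelled WT) and 4 libraries labelled with an epidermis *Rora* knockout (A3, B4, C2 and C3, called RoraEKO here). In the RoraEKO strain a floxed *Rora* gene is deleted by a Cre recombinase under the keratin 14 promoter, which is active in basal keratinocytes and in the hair follicle. The labels do not state whether the control mice carried a floxed allele or the Cre. The number of mice given for each genotype equals the number of libraries, and no pooling is mentioned. The epidermis had been peeled from the dermis after brief heating.

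Tight junctions seal the space between neighbouring cells. In the epidermis they lie in the granular layer below the stratum corneum, where they form a barrier to water and solutes that adds to the one made by the cornified cells. Claudins and occludin span the membrane, ZO proteins tie them to actin, and at the corners where cells meet in threes the seal depends on tricellulin and on proteins of the angulin family. Claudin-1 is required for the water barrier of newborn mouse skin.

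Library totals ran from 17286903 to 26705533 counts. Counts were expressed relative to library size with TMM factors (CPM). The RoraEKO libraries were tested against the controls over 13147 genes with edgeR's quasi-likelihood (QL) method, and a gene was called when its adjusted p was below 0.05 and its change exceeded 1.5-fold. *Rora* itself did not separate the genotypes at gene level, with 158 to 309 CPM in the control libraries and 154 to 237 CPM in the RoraEKO libraries, so the targeted gene does not check the labels. *Nr1d1* and *Bmal1*, clock genes known as ROR targets and picked here after their values were seen, were lower in the RoraEKO libraries. *Nr1d1* was at 11.8 to 22.4 CPM in the control and 0.699 to 1.5 CPM in the RoraEKO libraries (adjusted p = 0.000112, edgeR QL), and *Bmal1* at 14.3 to 22.5 and 2.71 to 4.05 CPM (adjusted p = 0.000238, edgeR QL). Control libraries C1 and C6 carried *Xist* at 416 and 527 CPM, and the other 6 libraries were at 0.0546 CPM or less. The Y-linked gene *Ddx3y* went the other way, at 0 CPM in C1 and C6 and at 15.7 to 24.1 CPM in the other 6. By these genes C1 and C6 read as female and the other 6 libraries, with every RoraEKO library among them, as male. Spinous and granular keratinocyte markers were abundant, those of dermal fibroblasts summed to at most 10.4 CPM and those of endothelium to at most 4.72 CPM. All 5 melanocyte markers had log2 fold changes below 0 (median -0.84), as had 4 of 5 Langerhans cell markers (median -0.47), beside 56.1% of all genes tested. All 5 T cell markers were above 0 (median 0.43). In each of these 3 lists 0 were called. Of all genes tested 5.51% were called, and the genotypes did not overlap in 12.9%. Of 6 spinous markers 0 were called. Their sum, made up mostly of *Krt1* and *Krt10*, lay between 45028 and 70981 CPM in the control libraries and between 86356 and 107612 CPM in the RoraEKO libraries. The genotypes did not overlap in these 2 keratins (log2 fold changes 0.70 and 0.66, adjusted p = 0.287 and 0.274, edgeR QL), whereas they overlapped in the other 4 markers, with log2 fold changes from -0.34 in *Krtdap* to 0.37 in *Dsc1*. Of 8 markers of the granular layer, where tight junctions lie, 1 was called. This was *Hrnr*, which encodes hornerin of the cornified envelope and was lower in the RoraEKO libraries (729 to 2128 CPM in controls, 164 to 460 CPM in RoraEKO; log2 fold change -1.90, adjusted p = 0.0211, edgeR QL). *Casp14* (log2 fold change 0.64, adjusted p = 0.0717) and *Tgm3* (0.46, adjusted p = 0.294) also had genotypes that did not overlap, on the other side of 0. The granular sum was 12433 to 18832 CPM in the control and 12606 to 17401 CPM in the RoraEKO libraries, and the median log2 fold change of the 8 was -0.10. The part of the cell type markers in the results below was not tested. Basal markers were sparse beside the spinous ones, with sums of 283 to 633 CPM in the control and 304 to 1252 CPM in the RoraEKO libraries. *Krt14* was between 61.1 and 203 CPM in 7 libraries and at 706 CPM in RoraEKO library B4. Of the 7 basal markers 0 were called and 5 had log2 fold changes below 0. The genotypes did not overlap in 1 of them, *Krt15* (log2 fold change -0.57, adjusted p = 0.0884, edgeR QL).

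No tight junction gene of the 9 passed the cutoffs. *Cldn7* was too low to be tested. Among the other 8, 0 were called in either direction (edgeR QL), against 5.51% of all genes tested, and the genotypes overlapped in all 8, against the 12.9% of all genes in which they did not. A share of 5.51% amounts to less than 1 gene in a list of 8, so 0 calls is near the share of all genes. An unadjusted p under 0.05 was found for *Cldn23* and *Ocln*, 2 of the 8 genes, against 18.2% of all genes tested. DESeq2 and the likelihood ratio test of edgeR also called 0 of the 8. The log2 fold changes ran from -0.93 in *Cldn3* to 0.24 in *Tjp1*, 7 of the 8 were below 0 beside 56.1% of all genes tested, and their median was -0.35 beside -0.04. Without control library A1 the median was -0.04 with 5 of the 8 below 0, and it was -0.15 and -0.19 without RoraEKO libraries C2 and C3. The sign of *Cldn1*, *Cldn3*, *Cldn4* and *Tjp3* changed under at least 1 of the alternative fits, and that of *Cldn8*, *Cldn23*, *Ocln* and *Tjp1* under none. In RNA from a mixture of cells, fewer cells expressing a gene and less of its RNA per cell cannot be told apart.

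**Figure D1:**
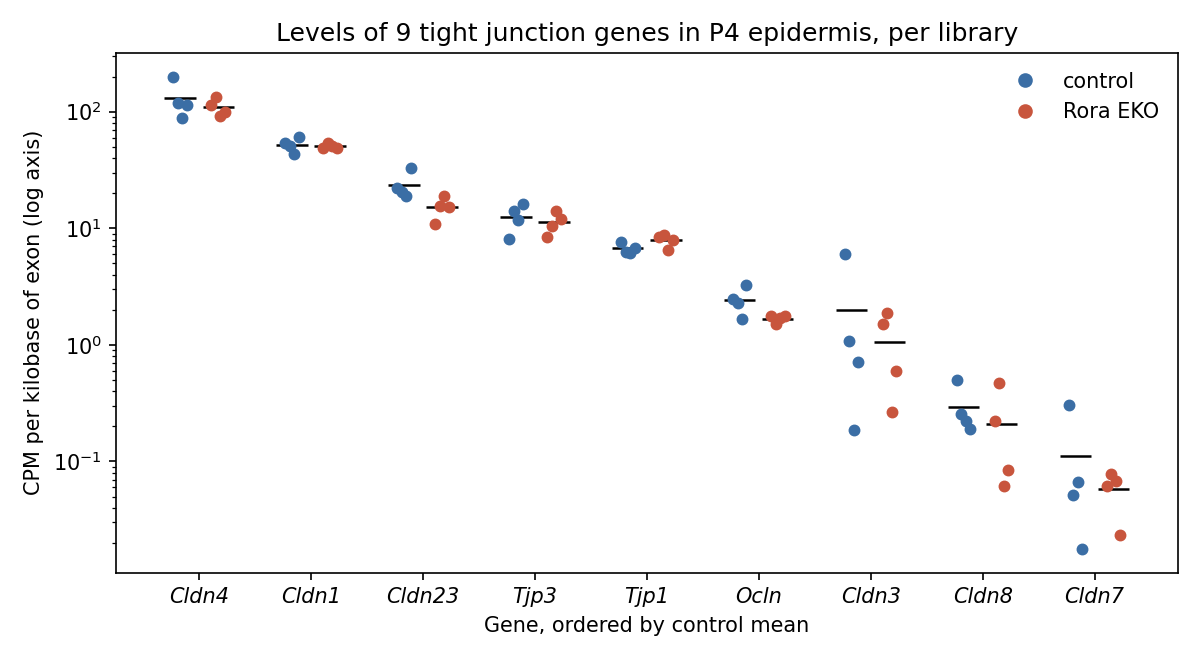
Level of each tight junction gene in every library, in CPM per kilobase of exon on a log axis, with the mean of each genotype as a line. *Cldn4*, *Cldn1* and *Cldn23* were the most abundant by this measure in both genotypes, and *Cldn8* and *Cldn7* lay below 1 CPM per kilobase in all 8 libraries.

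To compare levels between genes, CPM was divided by the summed exon length. On this scale *Cldn4* had the highest control level, at 130 ± 48.5 CPM per kilobase (SD, n = 4), which was 2.5 times that of *Cldn1*, at 52.2 ± 7.05 CPM per kilobase. Below them followed *Cldn23* at 23.6 ± 6.41, *Tjp3* at 12.5 ± 3.47, *Tjp1* at 6.71 ± 0.633 and *Ocln* at 2.43 ± 0.652 CPM per kilobase. The ranges of these 6 genes did not overlap in the control libraries. With the longest transcript as the length, the order of the 9 means was the same, but the control ranges of *Cldn23* (18.9 to 33) and *Tjp3* (9.89 to 19.7 CPM per kilobase) overlapped. The order could not be read further down, because *Cldn3* ran from 0.188 to 6.05 CPM per kilobase and overlapped both *Ocln* and *Cldn8*, and *Cldn8* (0.191 to 0.501) overlapped *Cldn7* (0.0178 to 0.306). The order of the means was the same in the RoraEKO libraries. There the levels of *Cldn23* (10.9 to 19 CPM per kilobase) and *Tjp3* (8.46 to 14.1) overlapped, as did those of *Tjp3* and *Tjp1* (6.49 to 8.74).

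*Cldn1* (ENSMUSG00000022512, chromosome 16 from 26175392 to 26190596 of GRCm39, minus strand) encodes the main sealing claudin of the epidermis. Control libraries A1, B1, C1 and C6 held 263, 247, 210 and 292 CPM of it, and RoraEKO libraries A3, B4, C2 and C3 held 238, 263, 244 and 234 CPM. The RoraEKO libraries lay inside the range of the control libraries. The log2 fold change was -0.05 (adjusted p = 0.92, edgeR QL), and the 95% interval of the difference in mean log2 CPM reached from -0.30 to 0.22, the narrowest among the 8 genes. *Cldn1* made up between 19.1% and 31.1% of the summed per-kilobase level of the 6 claudins.

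*Cldn4* (ENSMUSG00000047501, chromosome 5 from 134973973 to 134975788, minus strand) encodes a claudin found in the granular layer. Its levels in the same order were 363, 217, 159 and 207 CPM in the control libraries and 208, 244, 168 and 180 CPM in the RoraEKO libraries. Control library A1 stood highest and the other 7 libraries were mixed. Its log2 fold change of -0.24 (adjusted p = 0.695, edgeR QL) became 0.04 without control library A1 and -0.55 with *Xist* as a covariate.

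*Cldn3* (ENSMUSG00000070473, chromosome 5 from 135015068 to 135016326, plus strand) lies 39279 bases from *Cldn4*. It was scarce, with 5 to 200 counts per library. The control libraries were at 7.61, 1.37, 0.237 and 0.901 CPM and the RoraEKO libraries at 1.89, 2.38, 0.337 and 0.749 CPM. Here too control library A1 was far above the rest, and the RoraEKO libraries fell within the control range. The fitted log2 fold change was -0.93 (adjusted p = 0.692, edgeR QL) and the difference in mean log2 CPM was only -0.26, with a 95% interval from -2.97 to 2.45. Without control library A1 the log2 fold change turned to 0.69, and with *Xist* as a covariate it was -1.79, so the data gave no direction for *Cldn3*. Over the 8 libraries the log2 CPM of *Cldn3* and *Cldn4* had a Pearson r of 0.96, the highest among pairs of the 9 genes, given as a description since library A1 is highest in both.

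*Cldn8* (ENSMUSG00000050520, chromosome 16 from 88357716 to 88360071, minus strand) had 3 to 31 counts per library. Its levels were 1.18, 0.601, 0.521 and 0.45 CPM in the control libraries and 0.522, 1.11, 0.145 and 0.2 CPM in the RoraEKO libraries. RoraEKO libraries C2 and C3 were the lowest of the 8, and library B4 was the second highest. *Cldn8* was not called (log2 fold change -0.46, adjusted p = 0.796, edgeR QL), and the 95% interval of the log2 CPM difference ran from -2.10 to 0.84. The log2 fold change was -1.30 without RoraEKO library B4 and -0.05 without control library A1, and it was -0.08 and -0.20 without RoraEKO libraries C2 and C3. With *Xist* as a covariate it was -0.88.

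*Cldn7* (ENSMUSG00000018569, chromosome 11 from 69852648 to 69858711, plus strand), a claudin of many simple epithelia, was hardly detected. Its 4 control libraries held 17, 2, 3 and 1 counts, and its RoraEKO libraries held 2, 4, 3 and 1 counts. In 6 of the 8 libraries it was therefore at or below a floor of 3 counts, which corresponded to between 0.113 and 0.196 CPM and covers counting error only. No fold change is given.

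*Cldn23* (ENSMUSG00000055976, chromosome 8 from 36291866 to 36293713, minus strand) had the smallest p among the 9 genes. The control libraries held 40.9, 37.7, 34.9 and 61 CPM and the RoraEKO libraries 20.2, 28.6, 35 and 28.4 CPM. The genotypes met at a single point, where RoraEKO library C2 was level with control library C1, and the other RoraEKO libraries were below every control library. Means were 43.6 ± 11.8 and 28.1 ± 6.09 CPM (SD, n = 4 per genotype). The log2 fold change of -0.64 had an adjusted p of 0.135 (edgeR QL). The difference in mean log2 CPM was -0.63 with a standard error of 0.243. Its 95% interval, taken for this gene alone, ran from -1.22 to -0.03. Within libraries sharing a title letter, the RoraEKO level was the lower in the A pair and in the B pair. Among the C libraries C2 and C3 held 35 and 28.4 CPM beside 34.9 and 61 CPM in the controls. Over the 20 alternative fits the adjusted p ran from 0.0704 to 0.349, and the log2 fold change was -0.41 without control library C6.

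*Ocln* (ENSMUSG00000021638, chromosome 13 from 100630334 to 100689535, minus strand) encodes occludin, a membrane protein with 4 spans that adds to the regulation and stability of the junction. It was at 23.4, 21.6, 15.8 and 30.6 CPM in the control libraries and at 16.5, 14.1, 16.1 and 16.5 CPM in the RoraEKO libraries. The RoraEKO libraries were close to each other, and 3 of the 4 control libraries were above all of them. Control library C1 alone fell within their range. The difference in mean log2 CPM was -0.49 with a standard error of 0.204. The log2 fold change was -0.54 (adjusted p = 0.151, edgeR QL). Without control library C1 it was -0.68 and *Ocln* passed the cutoffs (adjusted p = 0.0461, same test), and without control library C6 it was -0.33 (adjusted p = 0.323). With *Xist*, which both of these libraries carried, as a covariate, the log2 fold changes were -0.51 for *Ocln* and -0.48 for *Cldn23*, with adjusted p of 0.289 and 0.349 by edgeR QL.

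*Tjp1* (ENSMUSG00000030516, chromosome 7 from 64945898 to 65177529, minus strand) encodes ZO-1, and it was the only tested gene of the 9 with a log2 fold change above 0. Its levels were 60.1, 50.1, 48.9 and 53.8 CPM in the control libraries and 66.8, 69.2, 51.4 and 63.4 CPM in the RoraEKO libraries. RoraEKO libraries A3, B4 and C3 were above all control libraries, while C2 was among them. Its log2 fold change was 0.24 (adjusted p = 0.379, edgeR QL), and it was between 0.18 and 0.39 over the alternative fits. The difference in mean log2 CPM was 0.23 with a standard error of 0.117. *Tjp3* (ENSMUSG00000034917, chromosome 10 from 81109034 to 81127417, minus strand), which encodes ZO-3, was at 44.2, 76.8, 63.3 and 87.9 CPM in the control libraries and at 45.9, 56.3, 76.7 and 65.8 CPM in the RoraEKO libraries. The genotypes were interleaved. Its log2 fold change was -0.15 (adjusted p = 0.816, same test), and its sign changed under 3 of the 20 alternatives.

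**Figure D2:**
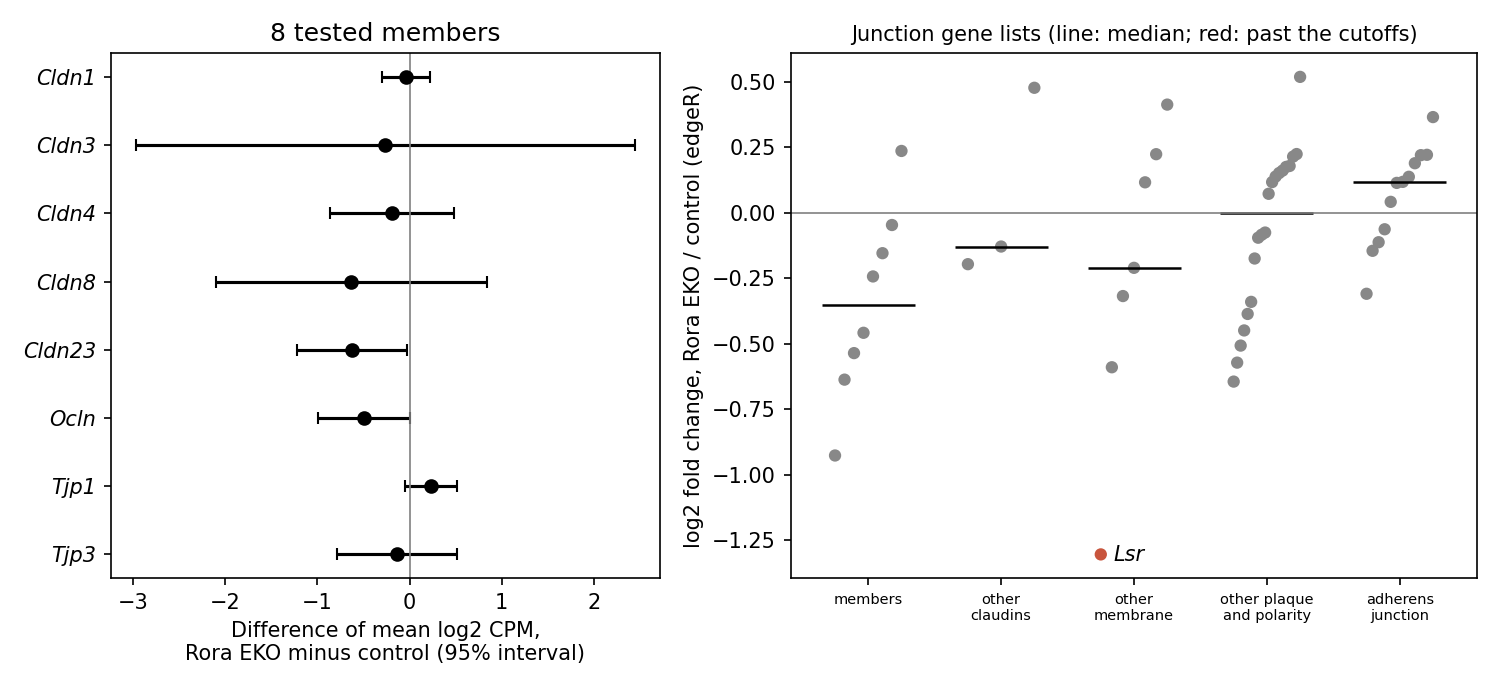
Left, difference in mean log2 CPM between RoraEKO and control libraries for the 8 tested members with its 95% interval (n = 4 per genotype); only the interval of *Cldn23* lies wholly on one side of 0. Right, edgeR log2 fold changes of the tested genes of 5 junction lists, each point a gene and each line a median, with *Lsr* as the single gene past the cutoffs.

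Another annotated gene overlaps 6 of the 9 genes, as *Tjp3* does with *Apba3* and *Cldn7* with *Elp5* on the opposite strand. The libraries were stranded, but whether the counting used strand is not stated, and reads could also be split between related claudins.

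Promoter sequence was examined for the letters bound by ROR receptors. RORα recognises AGGTCA with an A/T-rich stretch before it, and TAGGTCA, which contains AGGTCA, was searched as the stricter form, both on either strand. RefSeq windows of 300 bases (250 before to 50 after a start site) were at hand for 7 of the 9 genes and numbered 10. The table's build is GRCm38.p6, and the printed positions were found by exact match in GRCm39. AGGTCA occurred in 5 of the 10 windows and in 16.3% of all 32851 windows, and TAGGTCA in 2 of the 10 and in 2.61% of all. The windows of *Tjp3* and *Cldn7* with TAGGTCA and those of *Cldn4* and *Ocln* with AGGTCA are shown because they hold the letters searched for; a second *Cldn7* window with AGGTCA is left out. Capitals mark AGGTCA or, on the other strand, TGACCT. Each line gives the 250 bases before the start site, 5′ to 3′ on the gene's strand, at chr10:81127416-81127665 (minus), chr11:69855355-69855604 (plus), chr5:134975789-134976038 (minus) and chr13:100689227-100689476 (minus).
Tjp3: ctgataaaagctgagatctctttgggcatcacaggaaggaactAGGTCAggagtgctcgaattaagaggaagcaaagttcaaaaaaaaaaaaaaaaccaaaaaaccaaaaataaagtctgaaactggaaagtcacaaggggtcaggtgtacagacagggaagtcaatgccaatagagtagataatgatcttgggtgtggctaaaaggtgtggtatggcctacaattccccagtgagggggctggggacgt
Cldn7: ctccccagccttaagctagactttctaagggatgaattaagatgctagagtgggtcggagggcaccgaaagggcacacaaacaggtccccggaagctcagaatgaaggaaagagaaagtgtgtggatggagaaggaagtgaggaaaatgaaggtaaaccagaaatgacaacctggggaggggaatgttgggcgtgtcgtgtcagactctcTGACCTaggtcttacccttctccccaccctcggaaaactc
Cldn4: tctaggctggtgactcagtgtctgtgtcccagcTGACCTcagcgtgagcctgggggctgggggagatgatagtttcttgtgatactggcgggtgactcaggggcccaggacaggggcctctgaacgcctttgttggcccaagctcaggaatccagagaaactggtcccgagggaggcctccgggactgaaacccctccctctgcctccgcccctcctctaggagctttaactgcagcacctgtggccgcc
Ocln: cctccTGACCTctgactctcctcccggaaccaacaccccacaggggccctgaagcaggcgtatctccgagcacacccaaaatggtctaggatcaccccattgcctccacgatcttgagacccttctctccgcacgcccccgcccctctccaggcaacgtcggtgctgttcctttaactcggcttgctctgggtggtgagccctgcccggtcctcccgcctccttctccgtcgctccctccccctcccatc
The match begins 207 bases before the start site in *Tjp3*, 40 in *Cldn7*, 217 in *Cldn4* and 245 in *Ocln*. It is on the opposite strand in the latter 3 genes. *Tjp3* had overlapping genotypes, with a log2 fold change of -0.15, and *Cldn7* was too low to be tested. A match is a string of letters in these windows and was not tested for binding.

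The wider set of tight junction genes held 1 gene past the cutoffs. Of 54 further genes in 3 lists (other claudins, other membrane proteins, and plaque and polarity proteins), 30 were tested, 0 were higher and 1 was lower in the RoraEKO libraries (edgeR QL), against 2.3% and 3.22% of all genes tested. The 1 lower gene among 30 is near the latter share. Their median log2 fold change was -0.08, and 14 of the 30 were above 0. The genotypes did not overlap in 8 of the 30, or 26.7%, beside the 12.9% given above for all genes.

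The gene that fell was *Lsr* (ENSMUSG00000001247, chromosome 7 from 30657195 to 30673340, minus strand), which encodes angulin-1, the protein that marks tricellular contacts and recruits tricellulin to them. It was at 196, 127, 111 and 131 CPM in control libraries A1, B1, C1 and C6 and at 73.7, 61, 41.8 and 52.5 CPM in RoraEKO libraries A3, B4, C2 and C3. Every RoraEKO library was below every control library. *Lsr* fell 2.47-fold, with a log2 fold change of -1.30 (edgeR QL, adjusted p = 0.00802). The difference in mean log2 CPM was also -1.30, with a standard error of 0.248. *Lsr* passed the cutoffs in all 20 alternative fits, with log2 fold changes between -1.51 and -1.10. Genes on the opposite strand, *Fam187b* among them, overlap its locus. Its RefSeq promoter window held neither AGGTCA nor TAGGTCA, which says only that these letters are not in that window.

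The tricellulin gene *Marveld2* and its relative *Marveld3* did not pass the cutoffs. *Marveld2*, which encodes tricellulin, was at 10.9, 17.9, 16.7 and 16.8 CPM in the control libraries and at 14.5, 8.26, 14.7 and 12.6 CPM in the RoraEKO libraries (log2 fold change -0.32, adjusted p = 0.522, edgeR QL). *Marveld3*, the third member of the occludin family, was at 7.84, 7.32, 6.86 and 7.92 CPM beside 5.02, 2.71, 6.17 and 6.04 CPM. Its genotypes did not overlap, yet its log2 fold change of -0.59 had an adjusted p of 0.235 in the same test, with library B4 well below the other RoraEKO libraries.

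**Figure D3:**
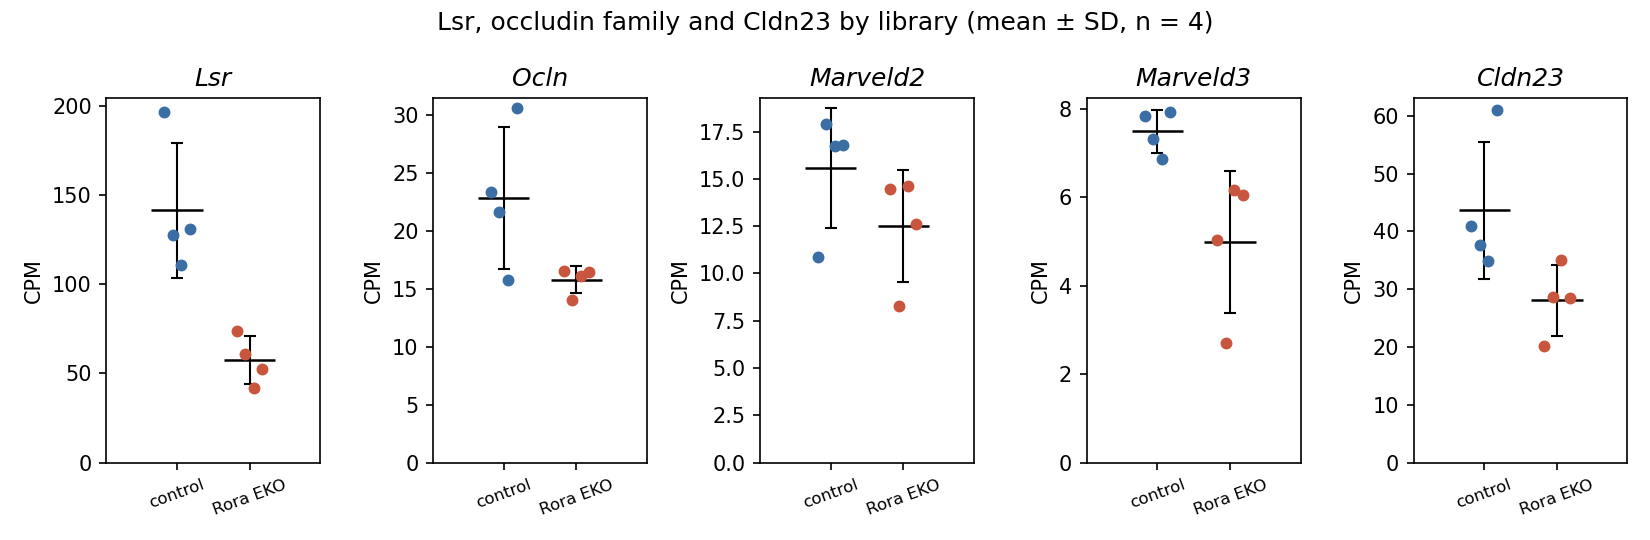
CPM of *Lsr*, *Ocln*, *Marveld2*, *Marveld3* and *Cldn23* in each library, with the mean and SD of each genotype (n = 4). The genotypes are apart for *Lsr*, with 111 CPM as the lowest control and 73.7 CPM as the highest RoraEKO library, and for *Marveld3*, and they overlap for *Ocln*, *Marveld2* and *Cldn23*.

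Among the other claudins only 3 of 21 listed genes were tested, and 9 had no count in any library. *Cldnd1*, a claudin domain protein, was between 39.5 and 45.8 CPM in the control libraries and between 51.2 and 62.7 CPM in the RoraEKO libraries. Its log2 fold change of 0.48 had an adjusted p of 0.0312 (edgeR QL) and was under the fold cutoff. The same held in the other direction for *Amotl2*, an angiomotin-like scaffold, at 72.5 to 82.5 CPM beside 49.6 to 62.3 CPM (log2 fold change -0.51, adjusted p = 0.0277, same test). In both genes the genotypes did not overlap. Their adjusted p ran from 0.00124 to 0.149 in *Cldnd1* and from 0.00329 to 0.116 in *Amotl2* over the alternative fits. It was above 0.05 with *Xist* as a covariate in both, without control library B1 or C1 or RoraEKO library B4 or C3 in both, without RoraEKO library C2 in *Cldnd1*, and without RoraEKO library A3 or control library C6 in *Amotl2*. It was also above 0.05 without scaling factors in *Cldnd1* and with all genes of at least 1 count in *Amotl2*. *Patj* and *Tjap1*, which encode further plaque proteins, had log2 fold changes of -0.39 and -0.64 with adjusted p of 0.147 and 0.195 in that test.

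Adherens junctions, which lie beside tight junctions in the same cells, were compared in the same way. All 12 listed genes were tested and 0 were called (edgeR QL), against 5.51% of all genes, a share that amounts to less than 1 gene in a list of this size. An unadjusted p under 0.05 was found for 1 gene (18.2% of all genes), the genotypes did not overlap in 2 (12.9% of all genes), and the median log2 fold change was 0.12. That gene was *Cdh1*, which encodes E-cadherin, at 436 ± 57.1 CPM in the control libraries and 352 ± 18.5 CPM in the RoraEKO libraries (SD, n = 4 per genotype), a log2 fold change of -0.31. *Jup*, which encodes plakoglobin and also serves desmosomes, had one of 0.37. Neither passed the cutoffs (adjusted p = 0.271 and 0.277, edgeR QL), although the genotypes did not overlap in either gene.

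Of the 6 claudins, 3 separated the libraries whose sample title begins with A or B from those whose title begins with C. The labels do not say what the letter stands for, and they give no reason to join A with B. In *Cldn3* the 4 libraries lettered A or B were at 1.37 to 7.61 CPM and the 4 lettered C at 0.237 to 0.901 CPM. *Cldn4* was at 208 to 363 CPM in the A and B libraries and at 159 to 207 CPM in the C libraries, and *Cldn8* at 0.522 to 1.18 and 0.145 to 0.521 CPM. In these 3 genes the A and B libraries did not overlap with the C libraries, by narrow margins for *Cldn4* and *Cldn8*. Between A and B the libraries overlapped in all 3. The joined A and B set and the C set overlapped in the other 6 genes. Of all genes tested, 10.9% did not overlap between the same sets of libraries. Markers of the hair follicle and hair shaft moved with them: the 8 markers, *Krt71* of the inner root sheath foremost, summed to between 17257 and 34229 CPM in the A and B libraries and to between 4926 and 10234 CPM in the C libraries. Single markers were apart in 3 of the 8. The part of the hair markers in the claudin values was not tested. With the letter as a replicate block, the log2 fold changes between genotypes were -0.19 for *Cldn4*, -0.42 for *Cldn3* and -0.65 for *Cldn8*, with adjusted p of 0.56, 0.724 and 0.48 by edgeR QL.

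**Figure D4:**
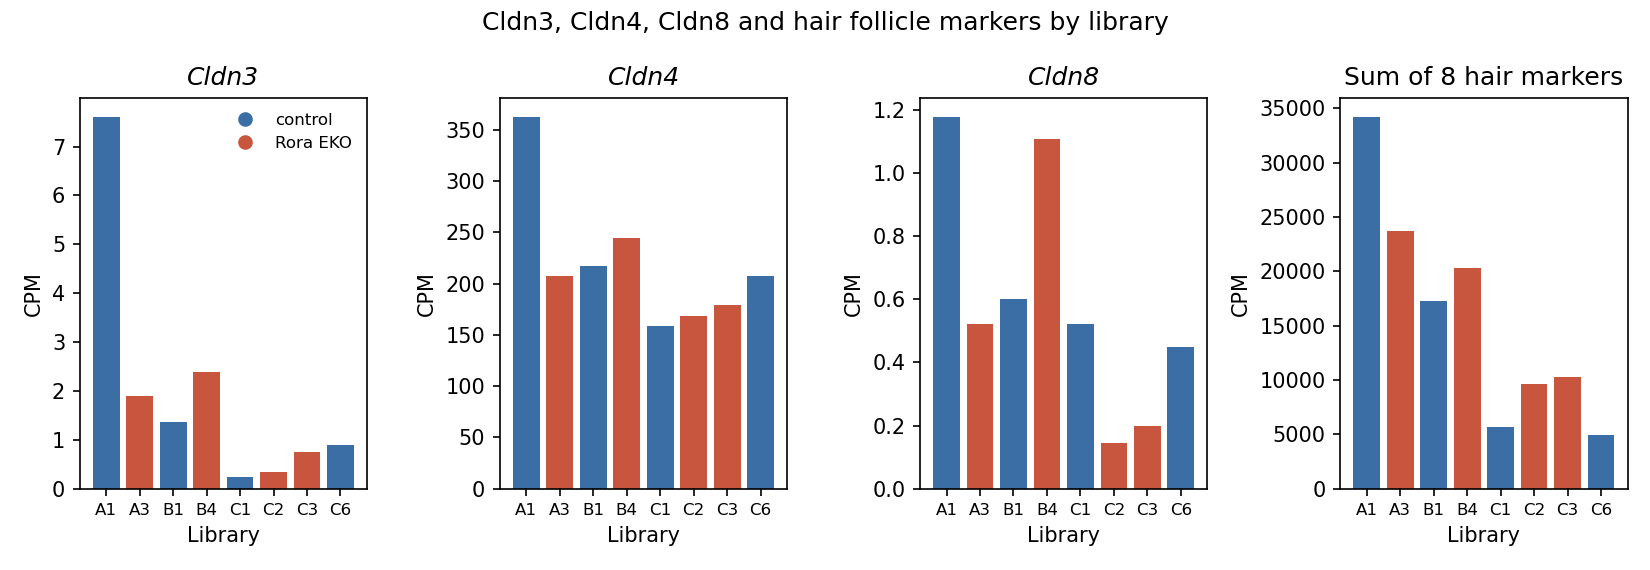
CPM of *Cldn3*, *Cldn4* and *Cldn8* and the summed CPM of 8 hair follicle markers in each library, coloured by genotype. In each panel the libraries lettered A or B are above those lettered C, and control A1 is the highest.

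Control library C1 was the lowest control in 6 of the 9 genes. Control library A1 was the highest control in 5 and C6 in 4, while C6 was the lowest in *Cldn7* and *Cldn8*. The genotype comparison and sex, as read from *Xist* and *Ddx3y*, are partly confounded. Only control libraries C1 and C6 read as female, and no RoraEKO library did.

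The genes most alike in pattern to the 3 most abundant members in CPM were found by Pearson correlation of log2 CPM over the 8 libraries, as a description. For *Cldn1* they were *Glyr1*, *Rad21* and *Vps51*, with r of 0.97, 0.93 and 0.93. For *Cldn4* they were *Sema7a*, *Zfp524* and *St14*, the last encoding the protease matriptase, with r of 0.99, 0.99 and 0.98. For *Tjp3* they were *Tnrc18*, *Ube2q2* and *Il15ra*, with r of 0.99, 0.99 and 0.98. They were picked as the highest among 13147 genes over few libraries, and no test was made.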

How the data were processed

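RNA-seq of P4 dorsal epidermis (TruSeq Stranded mRNA, NovaSeq) was used from 8 libraries. The authors converted reads with bcl2fastq 2.20.0.422, ran Skewer for trimming, aligned to GRCm39 by STAR 2.5.3a and quantified genes by RSEM. The deposited values are its expected counts for 55416 Ensembl genes, unscaled for library size or length. The annotation release is not given in the sources used here. The header line names 8 columns but not the identifiers, so names were read in order. Symbols and coordinates came from GENCODE mouse release 39 (54749 identifiers matched).

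Expected counts were rounded, filtered with filterByExpr (13147 genes) and scaled by TMM. Testing used edgeR 4.0.16 (R 4.3.3; quasi-likelihood, legacy form, no covariate, Benjamini-Hochberg adjustment). Log2 CPM had a prior count of 2, and standard errors and 95% intervals came from it with pooled variance. The scripts were tested on simulated data. DESeq2 1.42.0 was one of 20 alternatives. The genes named were the 9 members, *Rora*, other junction genes past the cutoffs or with the smallest adjusted p in their list, genes of similar pattern, and *Xist* and marker genes where their values touch a member's result. *Nr1d1* and *Bmal1* fall outside this rule. Members, lists and rules were chosen with earlier results of these data known. Plots were drawn with matplotlib 3.10.9.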

Additional observations from a re-analysis of the deposited data

Results flagged for a closer look

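A library far from the other 3 of its genotype was looked for in 18 sets of values (9 genes in 2 genotypes), and chance gives about 1 in 20 such sets. Control library A1 stood apart in *Cldn3*, at 7.61 CPM beside 0.237 to 1.37 CPM in the other control libraries. RoraEKO library B4 stood apart in *Ocln*, at 14.1 CPM beside 16.1 to 16.5 CPM, a gap that is small in size because the other 3 were so close.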

How the results depend on the processing

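Among the 20 alternatives were other scalings, tests, filters, covariates and cutoffs, and 8 fits that omitted a library. The total of 725 genes past the cutoffs was 1031 with DESeq2 and 472 with *Xist* as a covariate, and 457 to 896 with 1 library left out, with 457 without control replicate B1 and 475 without RoraEKO replicate C3. Members past the cutoffs numbered 0 under each alternative except that they ran from 0 to 1 in the 8 fits that left out 1 library, the 1 being *Ocln* without control replicate C1. Further tight junction genes past the cutoffs numbered 3 with no fold cutoff (*Lsr*, *Cldnd1* and *Amotl2*) and 1 to 2 with 1 library left out, where *Magi3* was added without control replicate A1 and *Cldnd1* without RoraEKO replicate A3. Adherens junction genes remained at 0. The log2 fold change changed sign in *Cldn1* with all genes of at least 1 count (0.008), and with *Xist* as a covariate in *Tjp3* (0.0414) and *Rora* (0.18). With 1 library left out it ran from -0.126 to 0.0568 in *Cldn1*, -1.39 to 0.69 in *Cldn3*, -0.39 to 0.04 in *Cldn4*, -0.314 to 0.0164 in *Tjp3* and -0.23 to 0.15 in *Rora*. None of these values was past the cutoffs, and the cause was not tested. With the title letter as a replicate block, 999 genes passed the cutoffs, 0 of them members; the titles share no replicate number between genotypes, and the labels do not say that a letter pairs libraries. Counts were low in *Cldn3*, *Cldn7* and *Cldn8*, with as few as 5, 1 and 3 counts in a library.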
